A study of Mus musculus with 5 samples.

Results

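Col6a1, Col6a2, Col6a3, Col8a1, Col12a1, Col14a1 and Col16a1, which encode the main chains of collagen VI, a short-chain collagen and collagens that attach to fibrils, were followed across the 5 single-cell RNA-seq libraries of the study. These 7 genes were chosen by name from the 31055 genes of the count matrices, and each of them had UMIs in every library. A UMI, or unique molecular identifier, is a tag that marks 1 captured RNA molecule. All libraries held GFP+ cells sorted from the hindlimb skeletal muscle of Prx1Cre;mTmG mice on a C57Bl/6 background. In these mice the Prx1 promoter drives Cre in limb mesenchyme, so GFP marks a lineage and not a current cell type, and the gate can hold progenitors, tendon cells and mural cells together. The libraries were uninjured muscle (d0), muscle around a tibial fracture at days 3 and 5 (d3 and d5 fracture), and muscle at days 3 and 5 after polytrauma, in which the muscle next to the fracture was injured as well (d3 and d5 polytrauma). Each library pooled 2 mice, and there was 1 library per condition. No difference between conditions therefore has a replicate check, no p-value is given, and every interval below covers counting error only.

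Conditions follow the cell numbers given by the study for 2 of the libraries. The library taken here as d5 fracture is deposited under the label of d3 polytrauma, and the library taken as d3 polytrauma is deposited under the label of d5 fracture. Every comparison below other than d3 fracture against d0 rests on that reassignment, and under the deposited labels 5 of the 6 comparisons gave other values. The levels of each library do not depend on it. The libraries also fell into 2 sets by their cell barcodes. The d0, d3 fracture and d3 polytrauma libraries shared 405 to 525 barcodes pairwise, the d5 fracture and d5 polytrauma libraries shared 944, and between the sets at most 3 were shared. The comparisons of day 5 with day 3 therefore cross the sets, so that the set and the day cannot be told apart, while the other 4 comparisons lie within a set. Of the 1468 cells kept at d5 fracture, 869 had a barcode found in another library. At d5 polytrauma this held for 342 of 11941 kept cells.

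After filters on genes, mitochondrial UMIs and depth, 1468 (d5 fracture) to 11941 (d5 polytrauma) cells were kept per library, with a median of 3640 UMIs per cell in the d0 library and 15688 to 34949 in the others. The summed FAP/MP markers (fibro-adipogenic and mesenchymal progenitors) lay between 933 and 2332 CPM in the 5 libraries, where CPM is UMIs per 1000000 UMIs of a library. Of 7 markers of hematopoietic cells, 6 had UMIs at d0, with a sum of 42.4 CPM, and 1 (Itgam) was at 0. Their sum was highest at d3 polytrauma, with 101 CPM. Of 5 myogenic markers, Pax7 and Myf5 were at 0 in the d0 and both fracture libraries. All 5 had UMIs in the d3 and d5 polytrauma libraries, with sums of 384 and 262 UMIs. The 5 markers of red blood cells summed to 303 CPM at d0. Cells with at least 2 UMIs of 5 cell-division genes made up 0.194% of cells at d0 and 31.2% to 48.6% after injury. Cells were not thinned to 1 depth for this count, and the part of the lower depth at d0 was not tested. Fewer cells of a type and less RNA per cell cannot be told apart in a sum over a library.

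Collagen VI is made of 3 different chains that join into a triple helix, and its tetramers form beaded microfilaments around cells and between the basement membrane and the interstitial matrix. In skeletal muscle it is made by interstitial fibroblasts, and mutations in its 3 main chains cause Ullrich congenital muscular dystrophy and Bethlem myopathy. The fibril-associated collagens XII, XIV and XVI do not form fibrils themselves. Collagens XII and XIV lie on the surface of collagen I fibrils in tendon, fascia and healing tissue, where they affect fibril spacing and diameter. Collagen VIII is a short-chain, network-forming collagen known from vessel walls and from the Descemet membrane of the cornea.

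Col6a1 and Col6a2, which encode the α1 and α2 chains, lie on the minus strand of chromosome 10 (GRCm38, 76708792 to 76726168 and 76595762 to 76623630). They are 85161 bases apart with 1 noncoding gene and no coding gene between them. Col6a3, which encodes the larger α3 chain, lies on chromosome 1 (90765923 to 90843971, minus strand). The sequences before the start sites of the 3 chains are shown because the share of the chains among their UMIs differed between libraries. Each line is the 250 bases before a RefSeq start site (GRCm38.p6), 5′ to 3′ on the minus strand. Capitals mark matches on either strand. The motifs searched were a TATA box (TATAAA) and a CCAAT box. A GC box with the letters GGGCGG and an AP-1 site with the letters TGANTCA were searched as well. The last motif was the SMAD element CAGACA.
Col6a1: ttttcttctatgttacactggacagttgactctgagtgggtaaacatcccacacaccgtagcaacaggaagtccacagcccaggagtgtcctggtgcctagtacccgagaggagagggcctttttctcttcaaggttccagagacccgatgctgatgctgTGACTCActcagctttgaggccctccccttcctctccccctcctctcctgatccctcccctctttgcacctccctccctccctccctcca
Col6a2: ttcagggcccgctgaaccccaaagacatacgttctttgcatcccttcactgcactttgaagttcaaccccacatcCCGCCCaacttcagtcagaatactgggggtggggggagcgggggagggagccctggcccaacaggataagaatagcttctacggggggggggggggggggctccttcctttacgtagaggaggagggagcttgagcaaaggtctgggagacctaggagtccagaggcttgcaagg
Col6a3: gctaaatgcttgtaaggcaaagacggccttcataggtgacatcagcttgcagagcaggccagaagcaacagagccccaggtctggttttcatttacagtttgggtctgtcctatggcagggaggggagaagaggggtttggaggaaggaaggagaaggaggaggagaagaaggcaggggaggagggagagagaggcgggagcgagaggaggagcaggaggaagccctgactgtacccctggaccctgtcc
The windows searched ran from 250 bases before to 50 bases after the start site. The Col6a1 window (chr10:76725995-76726294), whose start site lies 124 bases from the gene start of the GENCODE annotation, held 1 match to TGANTCA, a motif found in 7.81% of all promoter windows. The Col6a2 window (chr10:76623581-76623880) held 1 match to GGGCGG, which 35.7% of all windows hold. A second RefSeq start of Col6a2, 226 bases further into the gene, had 3 matches to GGGCGG. The Col6a3 window (chr1:90843922-90844221) held no match to any of the 5 motifs. A match to these letters is a description of the sequence and not a binding site.

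Col6a1 stood at 1054 CPM (95% interval 1038 to 1069) in the d0 library. Its level was 411 CPM at d3 fracture, 1137 CPM at d5 fracture, 303 CPM at d3 polytrauma and 931 CPM at d5 polytrauma. Both day 3 libraries were thus low, and both day 5 libraries were near the uninjured level. Col6a2 followed the same course, with 991 CPM at d0, 387 CPM at d3 fracture, 856 CPM at d5 fracture, 286 CPM at d3 polytrauma and 692 CPM at d5 polytrauma. Unlike Col6a1, Col6a2 was below its d0 level in all 4 injured libraries. Col6a3 had 456 CPM at d0, 226 CPM at d3 fracture, 633 CPM at d5 fracture, 261 CPM at d3 polytrauma and 798 CPM at d5 polytrauma. It was lowest at d3 fracture and highest at d5 polytrauma, where the other chains were below their d0 level. The exact Poisson intervals of the 7 genes reached at most 6.16% to either side of a level in the d0 library and at most 2.41% in the other libraries. Among neighbours in the order of a gene's levels, the intervals overlapped only for Col16a1 at d0 and d3 polytrauma. UMIs were counted at the 3′ end and not scaled by gene length, so levels are compared between libraries and not between genes.

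**Figure D1:**
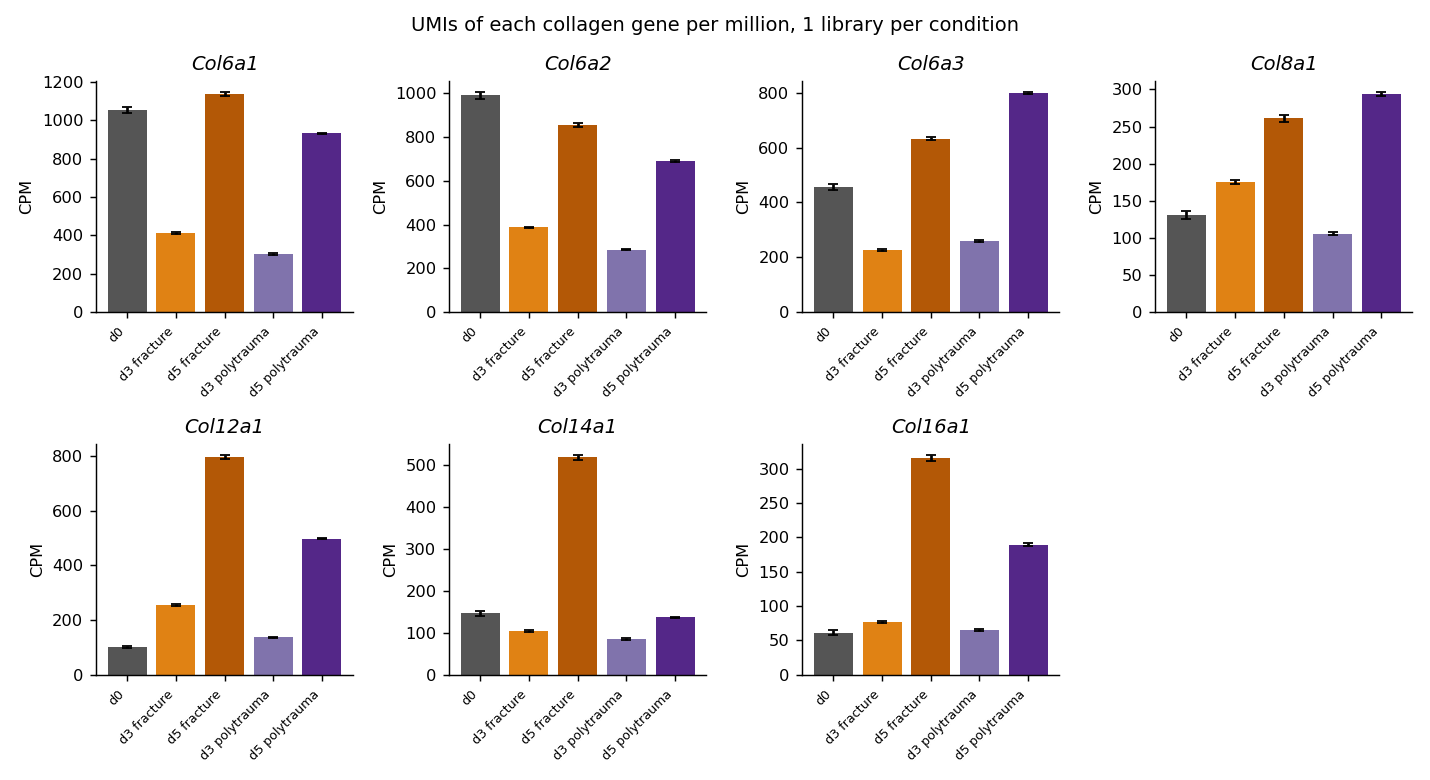
Level of each of the 7 collagen genes (CPM, vertical axis from 0) in the 5 libraries, as bars from 0, with exact 95% Poisson intervals. Col6a1 and Col6a2 fall from 1054 and 991 CPM at d0 to 303 and 286 CPM at d3 polytrauma, whereas Col12a1 is lowest at d0 with 102 CPM.

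The proportions of the 3 chains of collagen VI differed between the libraries. Col6a3 made up 18.2% of the UMIs of the 3 chains at d0 (exact binomial 95% interval 17.9 to 18.6), 22.0% at d3 fracture (21.8 to 22.3), 24.1% at d5 fracture (23.9 to 24.3), 30.7% at d3 polytrauma (30.4 to 31.0) and 33.0% at d5 polytrauma (32.8 to 33.1). The order was thus d0, then both fracture libraries, then both polytrauma libraries, and no intervals overlapped. Col6a2 went the other way, from 39.6% at d0 to 37.8% at d3 fracture, 32.6% at d5 fracture, 33.6% at d3 polytrauma and 28.6% at d5 polytrauma. The share of Col6a1 lay between 35.7% at d3 polytrauma and 43.3% at d5 fracture. Within FAP/MP-like clusters the share of Col6a3 was 18.2%, 19.5%, 25.8%, 29.6% and 32.4% in the order d0, d3 and d5 fracture, d3 and d5 polytrauma, so the same order held there. The d5 polytrauma value depended on a cluster of 2384 cells led by cell-division genes, without which it was 29.1% (28.8 to 29.3) and no longer above the 29.6% of d3 polytrauma (29.1 to 30.1). Under the deposited labels the library with 30.7% would be d5 fracture and that with 24.1% d3 polytrauma. These are shares of UMIs and not of protein chains.

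**Figure D2:**
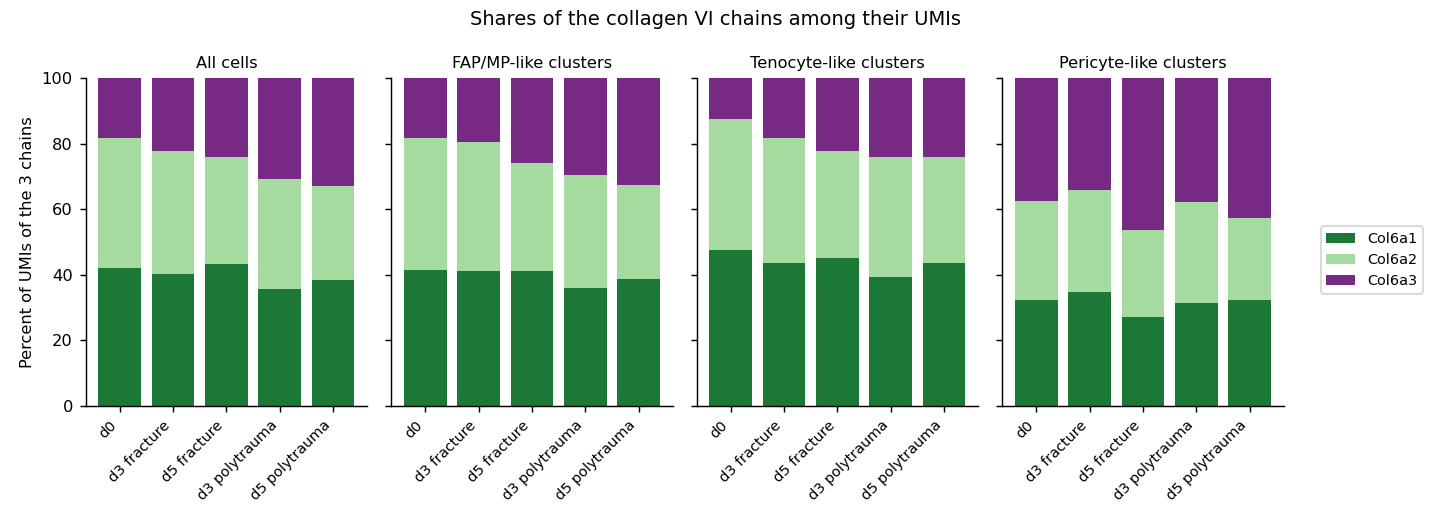
Stacked shares of Col6a1, Col6a2 and Col6a3 among the UMIs of the 3 chains (percent, vertical axis) for all cells and for 3 cell classes of the 5 libraries. The Col6a3 share runs from 18.2% at d0 to 33.0% at d5 polytrauma over all cells, and in Pericyte-like clusters it is at least 34.1% in every library.

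The mix of chains also differed between cell classes. Clusters were built in each library without collagens or marker genes and named from fixed markers. In Pericyte-like clusters, which carry markers of mural cells of small vessels, Col6a3 made up 37.5% of the chain UMIs at d0 (34.8 to 40.3), 34.1% at d3 fracture, 46.2% at d5 fracture, 37.7% at d3 polytrauma and 42.6% at d5 polytrauma. In Tenocyte-like clusters, which carry tendon markers, it made up 12.2% at d0 and 24.1% at d3 polytrauma, with the other libraries between. The Hematopoietic-like clusters, which carry hematopoietic markers, had Col6a3 shares of 38.8% from 134 UMIs at d3 polytrauma (30.5 to 47.6). At d5 polytrauma the share was 36.6% from 243 UMIs (30.6 to 43.0). Each interval holds both the Pericyte-like share of its library and that of the whole library, 30.7% and 33.0%, so it does not tell them apart. Whether the collagen VI UMIs of Hematopoietic-like clusters came from those cells or from free RNA was not tested. In Chondrocyte-like clusters, found at day 5 alone, Col6a3 made up 14.8% (d5 fracture) and 17.5% (d5 polytrauma). The lowest Col6a1 level of a named class at d0 was in Pericyte-like cells, at 122 CPM (110.5 to 135) against 1391 CPM (1368 to 1415) in FAP/MP-like cells. After injury the Pericyte-like clusters held 867 CPM of Col6a1 at d3 fracture, 539 CPM at d5 fracture, 348 CPM at d3 polytrauma and 730.4 CPM at d5 polytrauma, from 37 to 104 cells per library against 754 at d0. Different clusters carry the name, however, and their levels split. At d0 the class was 1 cluster led by the smooth muscle genes Acta2, Tagln and Myh11. The d3 fracture value came from 50 cells led by Kcnj8, Actg2 and Fabp4, while an unnamed cluster of 69 cells led by Pcp4l1, Myh11 and Sncg, left unnamed because its median UMI count was under a set fraction of the library's and no pericyte marker was among its 10 leading genes, had 121 CPM (84.9 to 166). At d5 fracture the class joined 18 cells led by Rgs5 and Col18a1 with 884 CPM (794.7 to 981) and 19 cells led by Pln and Mustn1 with 46.3 CPM (24.6 to 79.2). The class is therefore not compared between d0 and injury.

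In FAP/MP-like clusters, as in the whole libraries, collagen VI was low at day 3 and higher at day 5. Col6a1 there had 1391 CPM at d0, 519.8 CPM at d3 fracture, 1060.0 CPM at d5 fracture, 357 CPM at d3 polytrauma and 858 CPM at d5 polytrauma. Both day 5 values lay below the d0 interval of the class, whereas the whole d5 fracture library was above d0. Tenocyte-like clusters did not show that dip after fracture, with Col6a1 at 1083 CPM at d0 (1002 to 1170), 1050.2 CPM at d3 fracture (994.5 to 1108) and 1062 CPM at d5 fracture (1046 to 1078). These 3 intervals overlapped. After polytrauma the Tenocyte-like value was 622 CPM at day 3 and 1346 CPM at day 5. The Tenocyte-like clusters were led by Chodl and Col22a1 at d0, by Chad and Tnmd at d3 fracture, and at d5 fracture by Penk in 287 cells and by Scx in 239. The Penk cluster raised 3 FAP/MP markers beside 3 tenocyte markers and had 975 CPM of Col6a1 (955 to 995), against 1190.3 CPM in the Scx cluster. At d0 the unnamed cluster of 309 cells with 5 raised tenocyte markers had 938 CPM (891 to 987). The Tenocyte-like class is thus made up differently in each library. FAP/MP-like clusters were 59.1% of cells at d0, 22.0% at d3 fracture, 18.5% at d5 fracture, 41.5% at d3 polytrauma and 46.7% at d5 polytrauma. Their leading genes differed as well. Unnamed clusters were 20.8% of cells at d0, 74.6% at d3 fracture, 30.9% at d5 fracture, 47.6% at d3 polytrauma and 44.9% at d5 polytrauma. Of the Col12a1 UMIs, unnamed clusters held 61.2% at d0 and 80.1% at d3 fracture, and FAP/MP-like clusters 21.3% and 17.3%. An unnamed d0 cluster of 331 cells raised every FAP/MP marker. Differences of FAP/MP-like values between libraries carry these limits.

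Col8a1, the α1 chain of collagen VIII, had 131 CPM (126 to 137) at d0. Its level was 175 CPM at d3 fracture, 261 CPM at d5 fracture, 106 CPM at d3 polytrauma and 294 CPM at d5 polytrauma. The d3 polytrauma library was the lowest of the 5, and both day 5 libraries were the highest. In FAP/MP-like clusters Col8a1 had 51.8 CPM at d0 (47.4 to 56.5), 179 CPM at d3 fracture, 99.03 CPM at d5 fracture, 112 CPM at d3 polytrauma and 309.6 CPM at d5 polytrauma. All 4 injured values were above the d0 interval. At d0 the highest cluster held 913 CPM of Col8a1 in 309 cells led by Wif1, Bglap2, Chad and Cilp2, and this cluster was left unnamed although 5 tenocyte markers were raised in it.

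Col12a1, the chain of collagen XII, was the lowest at d0 with 102 CPM (97.3 to 107). It had 256 CPM at d3 fracture, 796 CPM at d5 fracture, 137 CPM at d3 polytrauma and 497 CPM at d5 polytrauma. All injured libraries were above d0, and at each day the fracture library was above the polytrauma library. The order at day 5 was the opposite in FAP/MP-like clusters, with 227 CPM at d5 fracture and 444 CPM at d5 polytrauma. Col16a1, the chain of collagen XVI, had 61.6 CPM (58.0 to 65.4) at d0, 77.3 CPM at d3 fracture, 315 CPM at d5 fracture, 65.7 CPM at d3 polytrauma (64.2 to 67.3) and 189 CPM at d5 polytrauma. Both day 5 libraries were high. The intervals of d0 and d3 polytrauma overlapped, and their difference was small, at log2 0.093 with a counting interval of 0.00092 to 0.19. Col14a1, the chain of collagen XIV, had 147 CPM (142 to 153) at d0, 105 CPM at d3 fracture, 518 CPM at d5 fracture, 85.4 CPM at d3 polytrauma and 137 CPM (135 to 139) at d5 polytrauma. Of the whole libraries, d5 fracture alone stood above d0. Within FAP/MP-like clusters d3 fracture did too, with 351 CPM (342 to 361) against 229 CPM at d0. The antisense gene 4930562D21Rik, which overlaps Col12a1, held UMIs equal to 0.0813% of those of Col12a1.

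The cell classes separated Col12a1 from Col14a1. Col12a1 was higher in Tenocyte-like than in FAP/MP-like clusters in 5 of 5 libraries. Col16a1 was too, but at d3 polytrauma the values were 91.4 and 91.2 CPM, which do not differ beyond counting error. At d5 polytrauma its intervals overlapped as well, with 202 CPM (194.5 to 210.7) against 193 CPM (190.1 to 195.5). Without the cluster of 2384 cells led by cell-division genes, the FAP/MP-like value of Col16a1 there was 231 CPM (226 to 235), above the Tenocyte-like value. At d0 Col12a1 had 424 CPM (374 to 479.8) in Tenocyte-like and 38.7 CPM (34.9 to 42.8) in FAP/MP-like clusters, and at d5 fracture 891 and 227 CPM. Col14a1 was higher in FAP/MP-like clusters in 5 of 5 libraries. It had 229 CPM (219 to 238) there at d0 and 4.99 CPM, from 3 UMIs (1.03 to 14.6), in Tenocyte-like clusters. At d5 fracture it had 1195 CPM (1172 to 1219) in FAP/MP-like and 679 CPM (667 to 692) in Tenocyte-like clusters. At d5 polytrauma the FAP/MP-like level of Col14a1 was 194 CPM (191 to 197). That class held a cluster of 2384 cells led by Hist1h2ap, Ube2c and Top2a, and without it the level was 338 CPM (333 to 344) from 3191 cells. Both values lay below the d5 fracture interval. At d0 the highest Col14a1 cluster, at 449 CPM, was led by Stmn4, Mrgprg, Daglb and Pi16. At d5 fracture the highest, at 1418 CPM, was led by Pi16, Clec3b and Igfbp6, and at d5 polytrauma it was an unnamed cluster of 777 cells with 504 CPM, led by Gm26917 and Lars2, with a median of 4633 UMIs.

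Chondrocyte-like clusters, which carry the cartilage gene Col2a1, were high in Col12a1, but not alone in this. Tenocyte-like clusters had 891 CPM at d5 fracture and 723 CPM (708 to 738) at d5 polytrauma, and the unnamed clusters of d5 fracture had 913 CPM. The d5 fracture cluster had 983 CPM (962 to 1004) from 181 cells and the d5 polytrauma cluster 673 CPM (639.5 to 708.5) from 191 cells with a median of 2589 UMIs. Of the latter, 50.3% had a barcode that also occurred in another library and fewer than 10 times the UMIs found there. The 95 cells without such barcodes gave 674 CPM. In the d5 fracture cluster 0% of cells had such a barcode. Col14a1 in Chondrocyte-like clusters was 81.3 CPM at d5 fracture and 25.4 CPM at d5 polytrauma. In Pericyte-like clusters Col14a1 lay between 17.0 CPM at d0 and 53.5 CPM (42.0 to 67.1) at d5 polytrauma. Hematopoietic-like clusters, found after polytrauma alone, had 27.2 CPM at d3 polytrauma (100 cells). At d5 polytrauma they had 38.5 CPM (19.2 to 68.9, 29 cells). Whether the Col14a1 UMIs of Pericyte-like clusters came from those cells or from free RNA was not tested. The Hematopoietic-like cluster of d5 polytrauma held 329 CPM of Col6a1, against 79.5 CPM in that of d3 polytrauma.

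**Figure D3:**
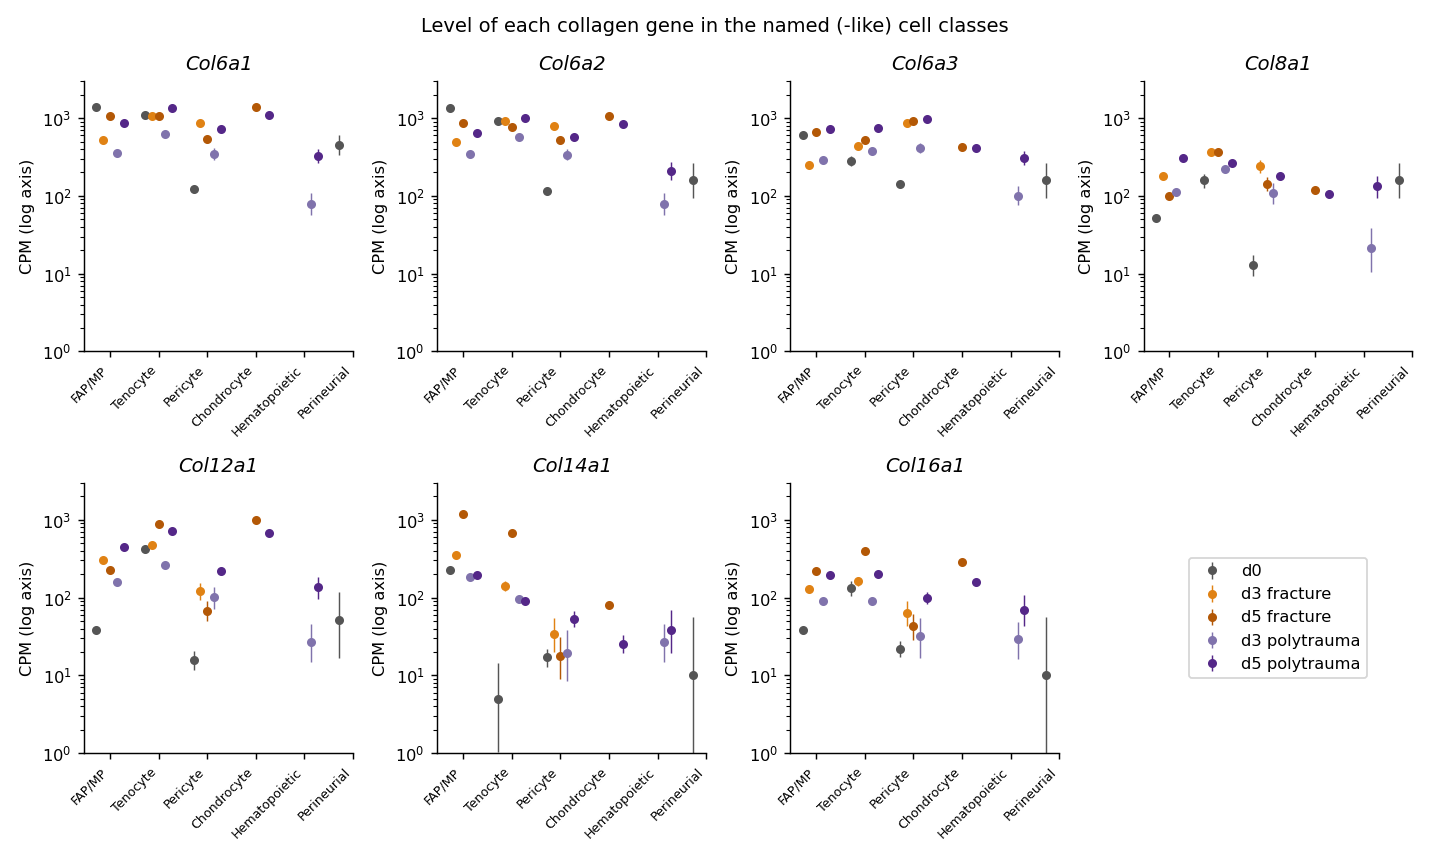
Level of each of the 7 genes (CPM, logarithmic vertical axis) in the cell classes named from markers, with 1 point per library and exact 95% Poisson intervals. Col12a1 is higher in Tenocyte-like than in FAP/MP-like clusters in all 5 libraries, and Col14a1 is lower there.

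The comparison of d3 fracture with d0 asks how the cells had responded 3 days after the bone injury. All 7 genes were tested, which here means at least 10 UMIs in 1 of the 2 libraries, and a gene was called changed at a difference of at least 2-fold. Col12a1 alone was higher, 2.51-fold (log2 1.33, 1.25 to 1.40), where 13.5% of all tested genes were at least 2-fold higher. The collagen VI chains were lower, Col6a1 2.56-fold, Col6a2 2.56-fold and Col6a3 2.02-fold, and these 3 calls of 7 stand beside 34.0% of all tested genes called lower. The median gene was itself at log2 -0.46. Relative to it, Col6a1 stood at -0.90, Col6a3 at -0.55 and Col12a1 at 1.79. With size factors from the median of ratios, none of the 3 chains reached 2-fold. Without dividing cells, or with a total that leaves out the 50 most abundant genes, Col6a3 did not reach it and the other 2 chains did. Among FAP/MP-like cells 3 genes were higher and 3 lower, where the median tested gene was at log2 -0.35. These cells were 59.1% of the d0 and 22.0% of the d3 fracture library. The share of all tested genes past 2-fold was not counted for FAP/MP-like cells, here or in the comparisons below. Col12a1 had 304 CPM against 38.7 CPM there (log2 2.97), Col8a1 179 against 51.8 CPM (1.79) and Col16a1 128 against 37.9 CPM (1.75).

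The comparison of d5 with d3 fracture follows the same injury over time. All genes but Col8a1 were higher, 6 of 7, where 40.8% of all tested genes were at least 2-fold higher, and none was lower, where 6.11% were. The largest difference was that of Col14a1, 4.92-fold (log2 2.30), followed by Col16a1 with 4.08-fold and Col12a1 with 3.11-fold. The chains of collagen VI were 2.76-fold (Col6a1), 2.21-fold (Col6a2) and 2.81-fold (Col6a3) higher, and Col8a1 was at 1.49-fold. The median of the 7 genes was log2 1.49 and that of all tested genes 0.73. With size factors, Col14a1 (log2 1.56) and Col16a1 (1.29) were the only genes past 2-fold. In FAP/MP-like clusters alone 3 genes were past 2-fold, where the median tested gene was at log2 0.48. Col12a1 turned there, with 227 CPM at d5 against 304 CPM at d3 (log2 -0.43), and so did Col8a1, with 99.03 CPM against 179 CPM (log2 -0.85). Under the deposited labels none of the 7 genes was called, where 6.38% of all tested genes were higher and 3.66% lower.

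The comparison of d3 polytrauma with d0 asks how the cells had responded when the muscle was injured too. Col6a1 was 3.47-fold and Col6a2 also 3.47-fold lower, 2 of 7 genes where 32.8% of all tested genes were lower. None was higher, where 13.9% were. Col6a3 did not reach the threshold, at 1.75-fold lower (log2 -0.81), nor did Col14a1 at 1.72-fold lower (log2 -0.79). Relative to the median gene, at log2 -0.44, Col6a1 stood at -1.36, Col6a3 at -0.37 and Col12a1 at 0.86. In FAP/MP-like clusters Col8a1 (log2 1.12), Col12a1 (2.05) and Col16a1 (1.27) were higher and the 3 collagen VI chains lower. The median tested gene was at log2 -0.34 there. Under the deposited labels the comparison with d0 called Col12a1, Col14a1 and Col16a1 higher. The median tested gene was then at log2 0.21, and the share past 2-fold was not counted.

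The comparison of d5 with d3 polytrauma called 6 of 7 genes higher, all but Col14a1, where 29.1% of all tested genes were higher and 7.91% lower. Col12a1 was 3.64-fold higher (log2 1.86), Col6a1 and Col6a3 were 3.07-fold and 3.06-fold higher, Col16a1 2.88-fold, Col8a1 2.78-fold and Col6a2 2.42-fold. Col14a1 was at 1.60-fold (log2 0.68). The median of the 7 genes was log2 1.53, against 0.49 for all tested genes, and all 7 lay above the median gene. With size factors, 4 genes were past 2-fold, all higher, where the median tested gene was at log2 -0.0034. Every library, those of day 5 included, serves in several comparisons, so the comparisons share samples.

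The comparisons of polytrauma with fracture at the same day ask what the added muscle injury went with. At day 3 no gene was called, where 6.38% of all tested genes were higher and 3.66% lower. The values nearest to the threshold were Col12a1, at 1.87-fold lower (log2 -0.91), and Col8a1, at 1.65-fold lower (log2 -0.72). Only 4.39% of all tested genes had a lower log2 difference than Col12a1. Col6a3 was at 1.15-fold higher, whereas Col6a1 and Col6a2 were at 1.36-fold and 1.35-fold lower. At day 5 Col14a1 was lower, 3.79-fold (log2 -1.92), 1 of 7 genes where 15.2% of all tested genes were lower, and none was higher, where 4.18% were. The other 6 genes lay between log2 -0.73 (Col16a1) and 0.34 (Col6a3). Col8a1 was higher in polytrauma in FAP/MP-like clusters, 309.6 against 99.03 CPM (log2 1.64), and Col12a1 turned to log2 0.97. Without the cluster led by cell-division genes Col12a1 was past 2-fold there (log2 1.13). The FAP/MP-like class held unlike cells in the 2 libraries. At d5 fracture it was 271 cells in 2 clusters, both with Ly6a and Cd34 raised. At d5 polytrauma it was 5575 cells in 4 clusters, and those of 2384 and 2019 cells raised neither gene. The part of this mix in the FAP/MP-like values was not tested. The Chondrocyte markers summed to 2939 CPM at d5 fracture and 302 CPM at d5 polytrauma, and their part in these differences was not tested. Under the deposited labels the day 3 comparison called 6 genes higher and the day 5 comparison 6 genes higher. Of all tested genes, 40.8% and 29.1% were then higher.

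**Figure D4:**
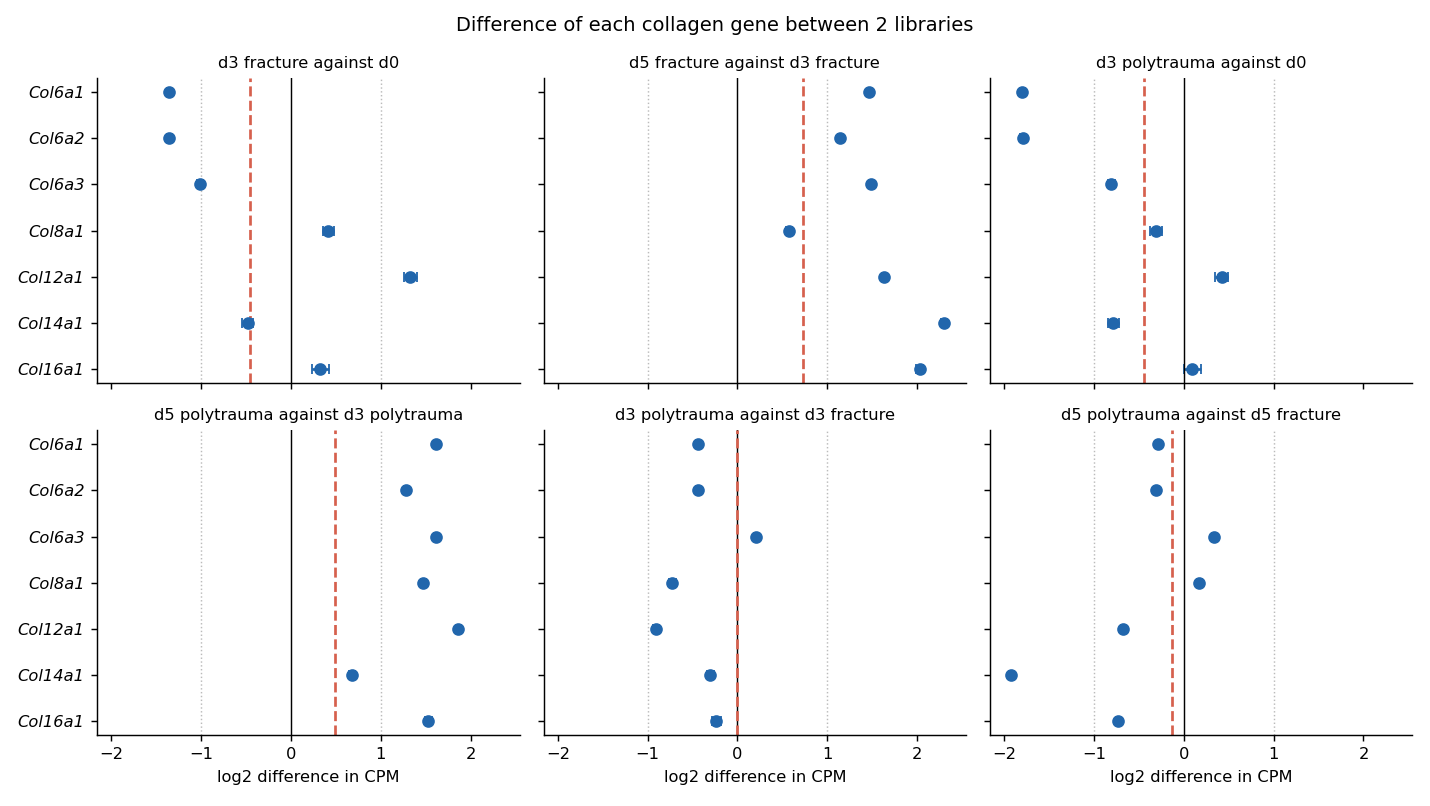
Log2 difference in CPM of each of the 7 genes (horizontal axis) in the 6 comparisons, with counting intervals, dotted lines at 2-fold and a dashed line at the median of all tested genes. At d5 against d3 of polytrauma all 7 genes lie to the right of the dashed line at 0.49, and at d5 polytrauma against d5 fracture Col14a1 stands apart at -1.92.

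The share of cells with a UMI was compared after thinning every kept cell to 1000 UMIs, which left out no cell. Col6a1 was then seen in 56.0% of cells at d0 (exact binomial 95% interval 54.6 to 57.5), 33.8% at d3 fracture, 61.9% at d5 fracture, 26.6% at d3 polytrauma and 58.2% at d5 polytrauma. Without thinning the shares were 78.7% at d0 and 88.4% to 98.2% in the injured libraries, whose cells were deeper. Col12a1 was seen in 6.54% of cells at d0, 21.4% at d3 fracture, 47.4% at d5 fracture, 13.1% at d3 polytrauma and 38.4% at d5 polytrauma. The thinned shares moved in the direction of the CPM in 41 of the 42 pairs of gene and comparison, and the unthinned shares in 32. All 3 collagen VI chains were seen in the same cell in 17.0% of cells at d0, 3.81% at d3 fracture, 17.0% at d5 fracture, 3.40% at d3 polytrauma and 19.0% at d5 polytrauma. In the Hematopoietic-like cluster of d3 polytrauma, with a median of 3750 UMIs against 15688 in its library, Col6a1 was seen in 6 of 100 cells and Col12a1 in 1, below the library's 26.6% and 13.1%.

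Cells with cell-division transcripts held less Col14a1 than the other cells of each injured library. At d3 fracture the dividing cells had 52.6 CPM and the others 191 CPM, at d5 fracture 256 and 686 CPM, at d3 polytrauma 43.1 and 149 CPM, and at d5 polytrauma 78.7 and 219.7 CPM. Col6a3 differed less between these cells, with 220.1 and 234 CPM at d3 fracture, 655 and 618 CPM at d5 fracture, 227 and 310.3 CPM at d3 polytrauma and 781 and 823 CPM at d5 polytrauma. Without dividing cells, Col14a1 was at log2 0.37 in d3 fracture against d0, where it had been at -0.48 with them, and Col6a1 stayed lower at -1.13. The d0 library had 9 such cells.

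Over the 49 clusters of at least 50 cells, Col6a1 and Col6a2 were the most alike of all pairs examined, with a Pearson r of 0.99 on log2(CPM + 1). Among 5168 genes, each was the gene most like the other. Col6a3 had r = 0.77 with Col6a1 and 0.78 with Dync1h1, a motor protein chain that was its closest gene. Col12a1 was most like Thbs2, a thrombospondin (r = 0.89), and so was Col8a1 (0.81). Col16a1 was most like Col1a1, the main fibrillar collagen chain (0.94), and Col14a1 was most like Anpep, a membrane aminopeptidase (0.87). Col12a1 and Col14a1 had r = 0.32. The clusters of 1 library share its cells' depth and preparation, so these values are descriptions.

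**Figure D5:**
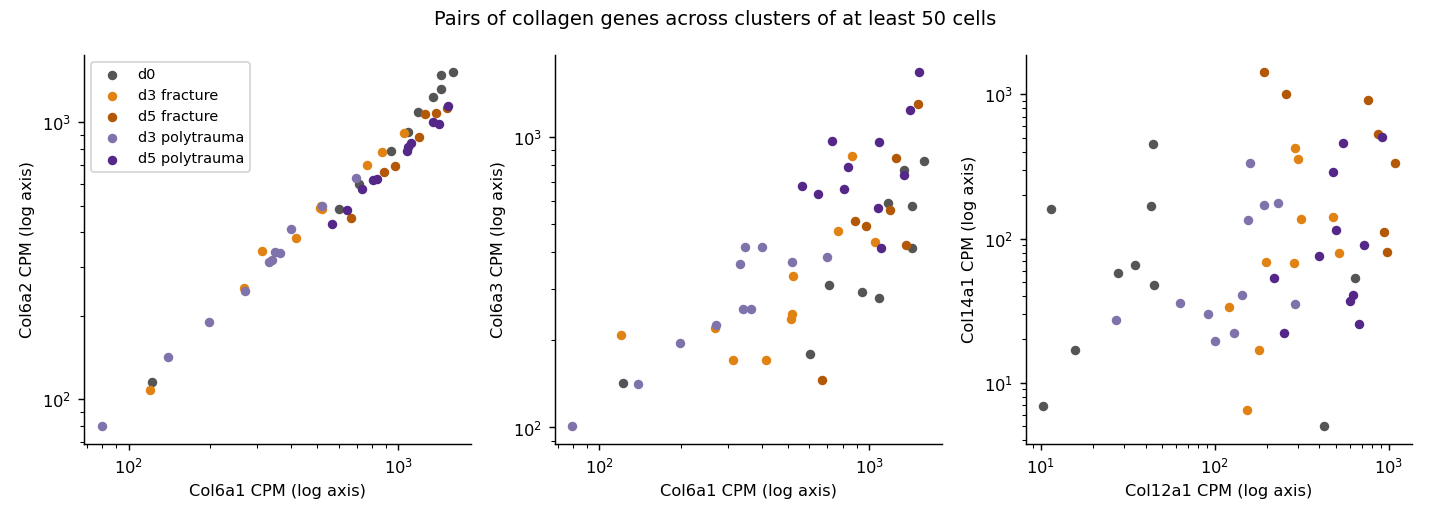
CPM of pairs of genes (both axes logarithmic) in the 49 clusters of at least 50 cells, coloured by library. Col6a1 and Col6a2 lie along 1 line with r = 0.99, Col6a3 scatters around Col6a1, and Col12a1 and Col14a1 show little relation, with r = 0.32.

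The remaining collagen VI chains were low. Col6a6 had 25.1 CPM at d0 and 0.27 to 7.75 CPM after injury, and Col6a5 had 23.5 CPM at d0 and 0.18 to 3.34 CPM after injury. Both were called lower in d3 fracture and d3 polytrauma against d0, where 34.0% and 32.8% of all tested genes were lower. At d5 against d3 fracture Col6a4, Col6a5 and Col6a6 were all called higher, where 40.8% of all tested genes were. Col6a5 and Col6a6 were called lower at d5 polytrauma than at d5 fracture, where 15.2% of all tested genes were. Col6a4 stayed at or below 0.44 CPM in each library. Among the fibril-associated relatives, the collagen IX genes, whose product coats cartilage fibrils, were highest at d5 fracture. Col9a3 had 357 CPM there, 18.7 CPM at d5 polytrauma and at most 0.90 CPM in the other libraries. Together with short-chain relatives such as Col8a2, 8 genes were in the matrix and 7 were tested. Of these, 6 were higher at d5 than at d3 of both fracture and polytrauma, and 1 was lower in both. Beside them, 40.8% and 29.1% of all tested genes were higher and 6.11% and 7.91% lower. Col22a1, 1 of the 6, had 13 and 15 UMIs in the 2 fracture libraries. At d5 polytrauma 5 genes, Col8a2 among them, were lower than at d5 fracture, where 15.2% of all tested genes were lower.

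The fibrillar collagens build the fibrils on which collagens XII and XIV sit. Of 11 genes, 10 were higher at d5 than d3 fracture and all 11 at d5 than d3 polytrauma, with a median log2 of 1.54 and 1.80. Over all tested genes 40.8% and 29.1% were higher, with medians of 0.73 and 0.49. Col1a1 had 3669.6 CPM at d0, 5316 CPM at d3 fracture, 22711 CPM at d5 fracture, 2847 CPM at d3 polytrauma and 9923 CPM at d5 polytrauma. For each 100 UMIs of fibrillar collagens, Col12a1, Col14a1 and Col16a1 together had 2.58 UMIs at d0, 2.75 at d3 fracture, 2.87 at d5 fracture, 2.94 at d3 polytrauma and 2.73 at d5 polytrauma. That ratio varied by less than the ratio of collagen VI, which was 20.8 at d0, 6.41 at d3 fracture, 4.62 at d5 fracture, 8.67 at d3 polytrauma and 8.02 at d5 polytrauma.

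Among 10 collagen receptors, 8 were lower at d3 fracture than at d0 and 7 at d3 polytrauma, with a median log2 of -1.89 and -1.86. Over all tested genes 34.0% and 32.8% were lower, with medians of -0.46 and -0.44. Antxr2, a receptor known to bind collagen VI, had 119 CPM at d0, 10.7 CPM at d3 fracture, 36.5 CPM at d5 fracture, 12.6 CPM at d3 polytrauma and 20.9 CPM at d5 polytrauma. Cspg4, which also binds collagen VI, was among the genes lower in both comparisons with d0. Cspg4 is also 1 of the 7 pericyte markers, which summed to 734 CPM at d0, 72.3 CPM at d3 fracture and 64.6 CPM at d3 polytrauma. Pericyte-like cells were 16.3% of cells at d0, 0.895% at d3 fracture and 0.871% at d3 polytrauma. The d3 fracture share leaves out an unnamed cluster of 69 cells (1.23%) that raised Cspg4, Des, Mylk, Rgs5 and Notch3. Different clusters carry the name, and these shares have that limit. The part of Pericyte-like cells in the receptor values was not tested. From d3 to d5, 8 of 10 receptors were higher after fracture and 6 were higher and 1 lower after polytrauma. Of all tested genes, 40.8% were higher after fracture, and 29.1% were higher and 7.91% lower after polytrauma. Of 10 fibril partners, 5 were lower and 1 higher in each comparison of day 3 with d0, beside the same 34.0% and 32.8% lower and 13.5% and 13.9% higher of all tested genes. Dcn, the proteoglycan decorin, had 12960.1 CPM at d0 and 1169 CPM at d3 fracture, and Tnc, tenascin C, had 54.0 CPM at d0 and 445 CPM at d3 fracture. Of 12 genes of collagen secretion and processing, 4 were higher and 1 lower at d3 fracture than at d0, with a median log2 of 0.44, where 13.5% of all tested genes were higher. Lox, the lysyl oxidase that crosslinks collagen, had 109 CPM at d0, 588 CPM at d3 fracture and 471 CPM at d3 polytrauma. At d5 against d3, 2 of these 12 genes were higher after fracture and 3 after polytrauma, beside the same 40.8% and 29.1% of all tested genes. Neither comparison of polytrauma with fracture called any of the 12. Of all tested genes, 6.38% were higher and 3.66% lower at day 3, and 4.18% higher and 15.2% lower at day 5.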

How the data were processed

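Single-cell RNA-seq libraries were made by the authors with the Chromium Single Cell 3′ kit v.2 and processed with Cell Ranger (3.1.0 per the matrix headers) against mm10. The deposited files hold UMI counts per gene and cell, not normalized. Strand use in counting is not given in the sources used here. Cells with 350 to 8000 genes, under 20% mitochondrial UMIs and at least 1000 UMIs were kept. The 7 genes and the gene lists were chosen with earlier results of these data known. Conditions of 2 libraries follow the study's cell numbers, against the deposited labels.

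UMIs were summed per library and given as CPM with exact Poisson 95% intervals. The log2 difference used a prior count of 0.5, and genes with at least 10 UMIs in 1 of the 2 libraries were tested. Intervals of differences are exact binomial. PCR and free RNA add error that these intervals do not cover. Shares of cells were taken after thinning to 1000 UMIs. A barcode was removed as shared if it occurred in another library and its cell had fewer than 10 times the UMIs found there. Each library was clustered with scanpy 1.11.5 (2000 variable genes without collagens and markers, 20 components, 15 neighbours, Leiden resolution 0.5). Of the 13 marker lists, that of cell-division genes gave no name. A cluster was named from at least 3 raised markers of 1 of the other lists. It stayed unnamed if another of these lists had a larger share raised or more genes among the 10 leading genes. The same held if its median UMI count was under 1/3 of the library's with no marker of the list among those 10. Scrublet's automatic threshold marked 0 to 4 cells per library and was not used, so doublets were kept and the highest scores at 0.8% per 1000 cells were removed as an alternative. Named genes were the 7 members, the 3 most alike genes of a member (of which the closest is given) and up to 4 genes with the most UMIs in each of 6 lists. Other genes named (leading genes of clusters, Cspg4, overlapping genes) were named after their values were seen. Of the 31055 genes, promoter sequences from RefSeq were found for 5 of the 7 members. Scripts were tested on simulated data.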

Additional observations from a re-analysis of the deposited data

Results flagged for a closer look

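Col8a1 went opposite ways at day 3 in the 2 injuries. Against d0 it was at log2 0.42 in d3 fracture and at -0.31 in d3 polytrauma, neither past 2-fold, and the difference between the injuries was not tested because each condition is 1 library. With size factors the d3 polytrauma value was 0.22, and with every cell weighted alike it was 0.25, and in FAP/MP-like clusters alone it was 1.12 (112 against 51.8 CPM), past 2-fold, so the opposite direction was lost under all 3. Col8a1 also differed between the days in the comparison of polytrauma with fracture, with log2 -0.72 at day 3 and 0.17 at day 5, and this was not tested either.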

How the results depend on the processing

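No paired analysis was possible because each condition is 1 library, and for the same reason no replicate could be left out. For the alternatives other than the deposited labels, the share of all tested genes past the threshold was not counted. It was also not counted for d3 polytrauma against d0 under the deposited labels. These counts therefore have no background beside them. The assignment of the 2 libraries mattered most. As deposited, the number of the 7 genes past 2-fold was 0 for d5 against d3 fracture, where 6.38% of all tested genes were higher and 3.66% lower. It was 3 for d3 polytrauma against d0 (all higher). For d5 against d3 polytrauma it was 1 (lower), where 15.2% of all tested genes were lower. It was 6 for d3 polytrauma against d3 fracture and 6 for d5 polytrauma against d5 fracture (all higher). Of all tested genes, 40.8% and 29.1% were higher in these last 2 comparisons. Among the genes called with the assignment used here, directions then turned for d5 against d3 fracture (log2 Col6a1 -0.44, Col6a2 -0.44, Col12a1 -0.91, Col14a1 -0.30, Col16a1 -0.23). They also turned for Col6a1 in d3 polytrauma against d0 (0.11) and for d5 against d3 polytrauma (Col6a1 -0.29, Col6a2 -0.31, Col12a1 -0.68, Col16a1 -0.73). Col14a1 turned in d5 polytrauma against d5 fracture (0.68). Genes not called turned as well, such as Col14a1 in d5 against d3 polytrauma, from log2 0.68 to -1.92. Over all genes and comparisons, 16 of 42 signs were kept. With size factors 39 of 42 were kept, and 1 gene was past 2-fold in d3 fracture against d0 (higher) and 2 in d5 against d3 fracture. In d5 against d3 polytrauma 4 genes were past 2-fold with size factors (all higher). At 1.5-fold the counts were 4 for d3 polytrauma against d0, 2 for d3 polytrauma against d3 fracture and 3 for d5 polytrauma against d5 fracture, all lower. In FAP/MP-like clusters 3 were past 2-fold for d5 against d3 fracture, with Col12a1 at -0.43, 6 for d3 polytrauma against d0 (3 higher, 3 lower) and 2 for d5 polytrauma against d5 fracture (1 higher, 1 lower), and d3 fracture against d0 had 6 (3 higher, 3 lower). The Col6a3 share in these clusters was 19.5% at d3 fracture, 25.8% at d5 fracture, 29.6% at d3 polytrauma and 32.4% at d5 polytrauma. Leaving out the cluster led by cell-division genes, chosen after seeing the data, gave 3, 6 and 3 (2 higher, 1 lower), and a Col6a3 share of 29.1% at d5 polytrauma. FAP/MP-like clusters kept 37 of 42 signs (35 without that cluster). Without dividing cells 40 were kept, and with every cell weighted alike 41. Removing doublets, shared barcodes (also all of them, an alternative chosen after seeing the data), other cell types, the UMI minimum or the low-value filter kept 42. Without all shared barcodes, 5 genes were past 2-fold in d5 against d3 fracture, against 6 with them. The largest shift of a log2 difference was then 0.27. Clusters were also built at Leiden resolutions of 0.3 and 1.0. Of the class levels, 106 then left the counting interval of the value at resolution 0.5, and 174 stayed within it. At resolution 0.5, 24 of 35 pairs of gene and library were higher in Tenocyte-like than in FAP/MP-like clusters. At 0.3 and 1.0 the number was 25 and 22. The cause of these changes was not tested. Depth limits the Tenocyte-like value of Col14a1 at d0, which rests on 3 UMIs.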
